A study of Mus musculus with 57 samples.

Results

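The 10 genes described here encode the proteins that join and divide mitochondria, and were taken by gene symbol from the count tables, which held 52853 genes after removal of empty and repeated entries. They fall into 3 roles, namely fusion (Mfn1, Mfn2 and Opa1), cleavage of Opa1 by inner-membrane proteases (Oma1 and Yme1l1) and fission (Dnm1l, Fis1, Mff, Mief1 and Mief2). All 10 were found in all 3 tables and all 10 passed the low-count filter in every comparison. RNA was sequenced from brown adipose tissue (BAT) and inguinal white adipose tissue (WAT) of male mice homozygous for Mfn2 R707W (KI) and of wild-type (WT) littermates. In BAT from mice on high-fat diet (HFD, with 45% of calories as fat) there were 6 KI and 6 WT mice, in inguinal WAT on HFD 8 and 8, and in inguinal WAT on chow 6 and 7. By the authors' methods the mice entered their diet at 5 weeks of age, while their figure legends give an older age. All of these mice were on the diet for 6 months. The KI allele was made with CRISPR-Cas9 and an oligonucleotide donor and is present in every tissue. It carries a silent change that makes an EcoRV site and a further upstream silent change. The allele descends from 1 founder on a C57BL/6J background, so features of that single line cannot be told apart from R707W.

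Mitochondria form a network that is reshaped by fusion and fission. The mitofusins Mfn1 and Mfn2 are GTPases of the outer membrane that tether and merge neighbouring mitochondria, and Mfn2 also sits at contacts with the endoplasmic reticulum. Opa1 merges the inner membranes and holds the cristae together, and its long forms are cut by Yme1l1 under normal conditions and by Oma1 when the inner membrane is stressed. Fission is carried out by the GTPase Drp1, the product of Dnm1l, which is recruited from the cytosol by receptors on the outer membrane. Those receptors are Mff, Mief2 (MiD49) and Mief1 (MiD51), while Fis1 is a further outer-membrane protein of the same machinery. Brown adipocytes are rich in mitochondria and divide them when stimulated to make heat. RNA sequencing counts transcripts, so neither Opa1 cleavage nor Drp1 recruitment is measured here.

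The edited codon and its surroundings are shown first because they define the KI mice. In the GRCm38 build (GENCODE vM21) Mfn2 lies on the minus strand of chromosome 4, from 147873599 to 147904704, and codon 707 of its 757 codons lies at 147877034 to 147877036, in exon 19 of the 20 exons of transcript Mfn2-201. The line for Mfn2 gives the reference coding strand, chr4:147876989-147877081, with codon 707 in capitals, counted from the initiator methionine. The line for Mfn1 gives the stretch of transcript Mfn1-201 that aligns with it without gaps, chr3:32574238-32574330 on the plus strand, with the aligned codon 688 in capitals.
Mfn2: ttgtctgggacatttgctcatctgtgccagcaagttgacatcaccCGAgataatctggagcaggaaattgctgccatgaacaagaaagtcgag
Mfn1: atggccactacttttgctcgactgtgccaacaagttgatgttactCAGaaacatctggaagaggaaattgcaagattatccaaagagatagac
Of the 93 bases, 58 (62.4%) were the same in both paralogues, and 16 of the 31 codons encoded the same residue. The edited codon was not one of those 16. The read counts are summed per gene and carry no allele, so the genotype was taken from the labels, and the level of Mfn2 RNA does not check it.

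The remaining genes are spread over other chromosomes. Mfn1 lies at chr3:32529465-32579239, Opa1 at chr16:29579334-29654884, Oma1 at chr4:103313812-103371868 and Yme1l1 at chr2:23156369-23199260. The fission genes lie at chr16:16312230-16358959 (Dnm1l), chr5:136953275-136966234 (Fis1), chr1:82724890-82752394 (Mff), chr15:80234018-80253371 (Mief1) and chr11:60728398-60732951 (Mief2). On the opposite strand, an antisense gene (Gm49521) overlaps Dnm1l, a transcript (C430014B12Rik) overlaps Mff and a pseudogene (Gm13156) overlaps Mfn2. On the same strand, the protein-coding AC140267.1 overlaps Mief1, Gm28941 overlaps Mff and Mir5100 overlaps Mief2. The strand setting of the counting is not given in the sources used here, and no strand setting separates partners on the same strand. Reads from all such partners cannot be told apart from those of the genes themselves.

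The libraries held between 8042591 and 11720458 counts for BAT and for inguinal WAT on chow, and between 17572752 and 25680411 for inguinal WAT on HFD, where each column corresponds to 2 technical libraries of a mouse in the labels. Levels are given as CPM, the counts of a gene relative to the library total after scaling by TMM factors over all 41 profiles. The brown adipocyte marker Ucp1 ranged from 4150 to 8169 CPM in BAT and stayed below 2 CPM in inguinal WAT, and the adipocyte marker Adipoq was at 556 CPM or more in every mouse. Skeletal muscle transcripts were present to very different degrees: the sum of 6 muscle markers was 59810 CPM in KI mouse 4 on chow, between 1099 and 3774 CPM in 6 other mice (BAT WT mice 1 and 2, inguinal HFD KI mice 3 and 5 and WT mice 1 and 2) and at most 869 CPM in the rest. A sum of 6 lymphocyte markers above 100 CPM, up to 604.5 CPM, was found in 5 inguinal WAT libraries (chow KI mice 1 and 3, HFD KI mouse 2 and HFD WT mice 2 and 6). Results that rest on these libraries are given with and without them. The sum of 4 fibroblast markers, none of them at 0 throughout a group, had a lower median in each KI group than in the matching WT group, at 224 and 449 CPM in BAT (ranges 189.9 to 447 and 359 to 935.5), 1776 and 3653 CPM on chow (1418 to 2280 and 1421 to 4643) and 1860 and 2576 CPM in inguinal WAT on HFD (1237 to 2330 and 1748 to 2916), and its part in the genotype estimates was not tested. Most of the sum came from the matrix genes Dpt, Col1a1 and Col3a1, whose medians were lower in every KI group. Pdgfra had medians in KI and WT mice of 9.26 and 12.4 CPM in BAT, 34.45 and 32.8 on chow and 30.4 and 34.6 in inguinal WAT on HFD. The sum therefore does not give the number of fibroblasts.

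Fis1 and Mfn2 were the most abundant of the 10 transcripts. Per kilobase of gene model, Fis1 ranked first and Mfn2 second in all 6 groups, at 71.7 ± 12.01 and 31.2 ± 3.99 CPM per kilobase in WT inguinal WAT on HFD (SD, n = 8) and at 78.3 ± 10.01 and 66.7 ± 2.10 in WT BAT (SD, n = 6). Mief1 ranked last in 5 of the 6 groups, at 2.65 ± 0.194 CPM per kilobase in WT inguinal WAT on HFD, and Oma1 was last in BAT of KI mice (6.10 ± 0.490, SD, n = 6). Mief2 took different places in the 2 tissues. It ranked number 3 in BAT of both genotypes, at 31.7 ± 6.04 CPM per kilobase in WT mice, and number 8 or 9 in inguinal WAT on HFD. Within groups, Mief2 had the highest coefficient of variation of the 10 genes in 5 of the 6 groups, up to 40.1% in KI mice on chow. The exception was WT mice on chow, in which Mfn2 was at 18.8% and Mief2 at 16.4%, while in WT BAT that of Mfn2 was 3.15%.

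**Figure D1:**
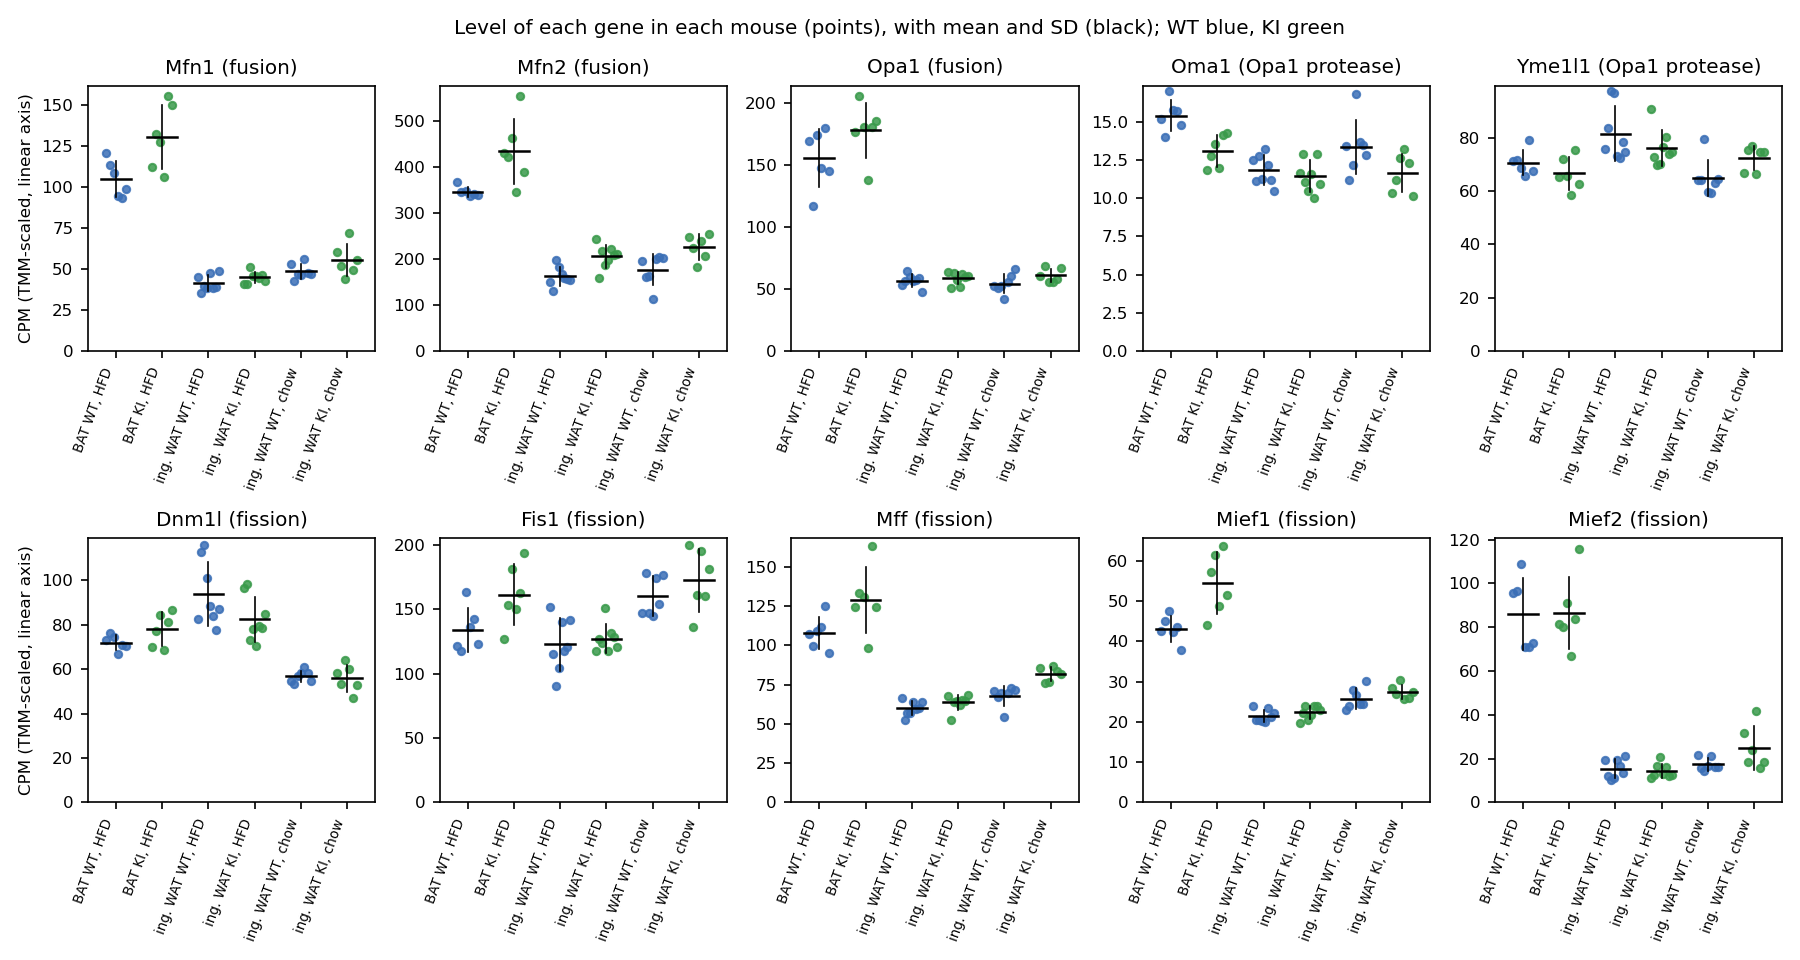
Level of each of the 10 genes in CPM (linear axes from 0, 1 panel per gene) in every mouse of the 6 groups, with WT in blue, KI in green, and the mean and SD in black. Mfn1, Mfn2, Opa1, Mff, Mief1 and Mief2 sit higher in BAT than in any inguinal WAT mouse, while Dnm1l is lowest in inguinal WAT on chow.

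Does the R707W mutation change the RNA of the gene that carries it or of its partners? At an adjusted p below 0.01 none of the 10 genes was called between genotypes in BAT or, on either diet, in inguinal WAT (edgeR's quasi-likelihood test, adjusted over all genes tested). Of all genes tested, 11.5%, 3.23% and 1.83% were called in inguinal WAT with HFD, in inguinal WAT with chow, and in BAT, respectively. An unadjusted p below 0.05 was reached by 1, 3 and 4 of the 10 genes, against 32.9%, 24.3% and 24.4% of all genes, and DESeq2 called 1 (Mfn2), 1 (Mff) and 0.

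Mfn2 itself gave a similar estimate in each tissue and diet without passing the threshold. In inguinal WAT on HFD it was at 159 to 244 CPM in KI mice (median 211) and at 130.4 to 198 CPM in WT mice (median 157). There, 5 of 8 KI mice exceeded the highest WT mouse, with a log2 fold change of 0.34 ± 0.09 (SE) and an adjusted p of 0.0114. This was the closest of the 10 genes to the threshold, and alternatives fell on both sides of it: DESeq2 gave an adjusted p of 0.00311, leaving out KI mouse 2 (adjusted p = 0.00288) or WT mouse 3 brought it past the threshold, and without the 4 libraries rich in muscle transcripts the log2 fold change was 0.27 and the adjusted p 0.105. On chow Mfn2 ranged from 183 to 255 CPM in KI mice (median 231) and from 114 to 204 CPM in WT mice (median 195), and 5 of 6 KI mice exceeded the highest WT mouse (log2 fold change 0.36 ± 0.12, adjusted p = 0.084). The lowest WT value came from mouse 4, in which lymphocyte markers summed to 99.0 CPM. In BAT the values were 346 to 554 CPM in KI mice (median 426) and 337 to 367 CPM in WT mice (median 344). Again 5 of 6 KI mice exceeded the highest WT mouse, and the spread between KI mice was much wider than between WT mice (log2 fold change 0.29 ± 0.11, adjusted p = 0.113). In bulk tissue, fewer cells of a type and less RNA per cell cannot be told apart.

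Neither of the other fusion genes was called. Mfn1, the paralogue, was at 40.98 to 51.3 CPM in KI and 35.1 to 48.9 CPM in WT inguinal WAT on HFD (log2 fold change 0.11 ± 0.07, adjusted p = 0.317) and at 43.8 to 71.6 against 42.7 to 56.2 CPM on chow (0.19 ± 0.10, adjusted p = 0.275). In BAT, Mfn1 was at 106 to 155.5 CPM in KI mice (median 129.7) and 93.1 to 121 CPM in WT mice (median 104). There, 4 of 6 KI mice lay above the highest WT mouse (log2 fold change 0.28 ± 0.11, adjusted p = 0.138), an estimate close to that of Mfn2 in the same tissue. The muscle-rich WT mice 1 and 2 had the highest WT values, 121 and 113 CPM, and the other WT mice lay between 93.1 and 109 CPM. On immunoblots of BAT on HFD, the authors found less of both mitofusin proteins in KI mice, a measure of protein and not of RNA. Opa1 overlapped between genotypes in all 3 comparisons, with medians of 59.9 and 56.8 CPM in KI and WT inguinal WAT on HFD, 59.4 and 52.7 CPM on chow and 181 and 158 CPM in BAT. Its log2 fold changes were 0.04 ± 0.07, 0.17 ± 0.09 and 0.16 ± 0.12, and the upper bounds of the 95% intervals were 0.18, 0.36 and 0.41.

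Oma1, the stress-activated protease, was the member with the lowest counts, 82 to 363 per mouse. Its estimate was negative in all 3 comparisons under TMM scaling, though with library totals alone that on HFD in inguinal WAT was 0.04. In BAT, Oma1 lay between 11.85 and 14.25 CPM in KI mice (median 13.1) and between 14.0 and 17.0 CPM in WT mice (median 15.4). Here 4 of 6 KI mice lay below every WT mouse (log2 fold change −0.26 ± 0.11, adjusted p = 0.152). On chow the medians were 11.7 CPM in KI and 13.4 CPM in WT mice (−0.20 ± 0.12, adjusted p = 0.326), and in inguinal WAT on HFD 11.3 and 11.7 CPM (−0.05 ± 0.08, adjusted p = 0.706). Yme1l1, the protease that cuts Opa1 under normal conditions, had estimates of both signs. Its log2 fold change was 0.16 ± 0.08 on chow, against −0.12 ± 0.09 in BAT and −0.11 ± 0.08 in inguinal WAT on HFD, and the smallest adjusted p was 0.213.

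Among the fission genes, Mff on chow was the only one of the 10 genes whose genotypes did not overlap. It was at 76.2 to 87.05 CPM in the 6 KI mice (median 82.6) and at 54.2 to 72.8 CPM in the 7 WT mice (median 69.9), so that the highest WT mouse stayed below the lowest KI mouse. The log2 fold change was 0.27 ± 0.07 and the adjusted p 0.0232 by edgeR, which is not past the threshold, and 0.00178 by DESeq2. Over all alternatives by edgeR or DESeq2 the adjusted p ran from 0.00178 to 0.118. Of all genes tested, 4.02% did not overlap between genotypes on chow, as against 4.64% in inguinal WAT on HFD and 3.66% in BAT, where none of the 10 genes was so separated. Mff overlapped in inguinal WAT on HFD (medians 64.5 and 59.8 CPM, adjusted p = 0.395) and in BAT (127.5 and 108 CPM, adjusted p = 0.214).

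Mief2 had the widest intervals. On chow it lay between 15.8 and 41.8 CPM in KI mice (median 21.1) and between 14.3 and 21.55 CPM in WT mice (median 16.3), with 3 of 6 KI mice above the highest WT mouse (log2 fold change 0.53, 95% interval 0.08 to 0.98, adjusted p = 0.133). The highest value belonged to KI mouse 4, the library with the most muscle transcripts, and without it the log2 fold change was 0.33 (adjusted p = 0.282). The second highest, 31.6 CPM, belonged to KI mouse 1, the mouse with the second-highest Mfn1 of that group. The 7 brown adipocyte markers summed to 149 to 841 CPM in these KI mice and to 37.2 to 117 CPM in the WT mice, and none of the 7 was at 0 throughout either group. Medians in KI and WT mice were 162 and 29.7 CPM for Cidea, 191.5 and 34.8 for Cox8b and 13.7 and 7.07 for Cox7a1. They were near the floor for Ucp1 (0.328 and 0.190), Elovl3 (1.87 and 0) and Zic1 (0 and 0). Dio2 was lower in KI mice (0.101 and 0.389). The sum therefore does not show a rise of all 7 markers, and the part of brown adipocyte transcripts in the result was not tested. In BAT, Mief2 had nearly equal medians of 82.5 CPM (KI) and 84.2 CPM (WT).

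Mief1, the paralogue of Mief2, showed its clearest separation in BAT instead. There it was at 44.0 to 63.6 CPM in KI mice (median 54.4) and 37.9 to 47.5 CPM in WT mice (median 43.0). In all, 5 of 6 KI mice exceeded the highest WT mouse, with a log2 fold change of 0.30 ± 0.10 and an adjusted p of 0.078, which became 0.0036 in 1 fit of all 6 groups. Over all alternatives by edgeR or DESeq2 the adjusted p ran from 0.0036 to 0.174. In inguinal WAT the genotypes overlapped, with medians of 22.6 and 20.9 CPM on HFD and 27.2 and 24.5 CPM on chow. Fis1 ranged in BAT from 127 to 194 CPM in KI and 118 to 163 CPM in WT mice (log2 fold change 0.24 ± 0.11, adjusted p = 0.208), and its estimates in inguinal WAT were 0.05 ± 0.09 on HFD and 0.11 ± 0.10 on chow. Dnm1l had medians of 79.0 CPM (KI) and 87.9 CPM (WT) in inguinal WAT on HFD (−0.19 ± 0.10, adjusted p = 0.191), 55.9 and 56.9 CPM on chow and 79.3 and 72.1 CPM in BAT.

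**Figure D2:**
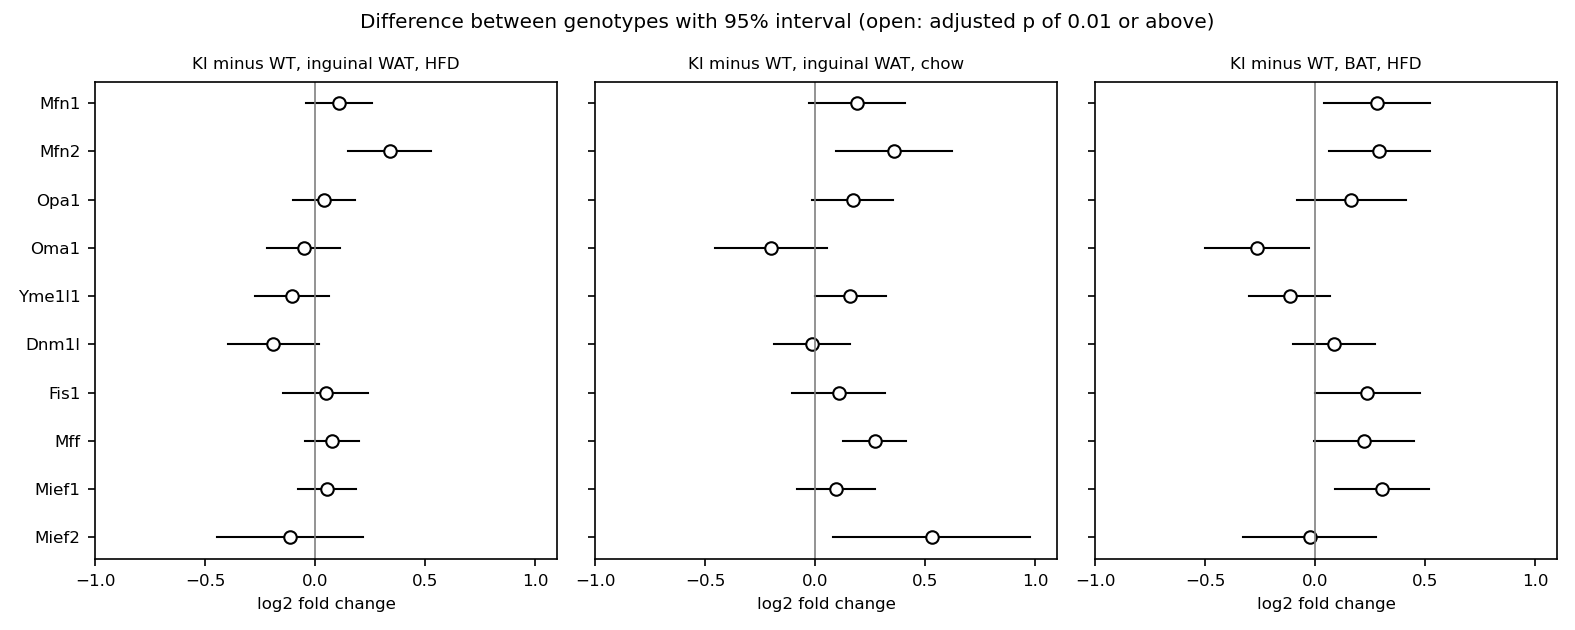
KI minus WT difference of each gene on the log2 scale (horizontal axis) with its 95% interval, in inguinal WAT on HFD, inguinal WAT on chow and BAT on HFD. Every point is open, as no gene had an adjusted p below 0.01. Mfn2 lies between 0.29 and 0.36 in all 3 panels and Oma1 below 0, the latter under TMM scaling (with library totals it is at 0.04 in inguinal WAT on HFD).

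The 10 genes were set beside 10 reference genes of the nucleus that encode mitochondrial proteins, without a test between the lists. Several of these encode respiratory chain subunits, and their RNA is not a measure of mitochondrial content. The authors found mtDNA lower in BAT of KI mice and unchanged in WAT. Their median log2 fold change was 0.04 (inguinal WAT, HFD), 0.17 (inguinal WAT, chow) and 0.19 (BAT), that of all genes tested was 0.01, −0.01 and −0.01, and that of the 10 reference genes (among them Tomm20, Cs and Cox4i1) was 0.28, 0.44 and 0.24. Of those 10 reference genes, 5, 3 and 0 were called, all of them higher in KI mice.

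A further 36 genes of mitochondrial dynamics and turnover were counted from lists, of which 34 were tested in each comparison. In inguinal WAT on HFD, 2 were called higher and 1 lower, beside 11.5% of all genes, and on chow 1 was higher, beside 3.23%, so neither count stood above the share of all genes. In BAT edgeR called none. An unadjusted p below 0.05 was reached by 20, 9 and 10 of the 34, beside 32.9%, 24.3% and 24.4% of all genes, and by 10 of the 11 tested fission genes on HFD. The median log2 fold changes of the 36 genes were 0.09, 0.12 and 0.13. The called genes are named by rule. Stoml2, an inner-membrane scaffold that binds prohibitins, rose on HFD from a median of 39.5 to 47.9 CPM, with 7 of 8 KI mice above the highest WT mouse (log2 fold change 0.25 ± 0.05, adjusted p = 0.0029). Akap1, which anchors protein kinase A at the outer membrane, rose from a median of 51.4 to 71.55 CPM (0.45 ± 0.10, adjusted p = 0.00266). Opa3, a mitochondrial membrane protein linked to optic atrophy, fell from 26.2 to 21.9 CPM (−0.31 ± 0.08, adjusted p = 0.00628). On chow the called gene was Chchd3, a subunit of the MICOS complex that shapes cristae, at 135 to 179 CPM in KI and 75.6 to 114.5 CPM in WT mice without overlap (0.56 ± 0.10, adjusted p = 0.00372).

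Ratios within a mouse need no scaling between libraries, and 4 were compared between genotypes in each tissue and diet. The ratio of Mfn2 to Mfn1 counts had a median of 4.42 in KI and 3.88 in WT mice in inguinal WAT on HFD, 4.19 and 3.68 on chow, and 3.41 and 3.32 in BAT. Its log2 difference was 0.23 on HFD (2-sided exact permutation test, p = 0.0555, n = 8 against 8), 0.19 on chow (p = 0.147, exact permutation) and 0.00 in BAT (p = 0.996, exact permutation). The smallest unadjusted p of the 12 tests was for Oma1 to Yme1l1 on chow, with medians of 0.160 in KI and 0.209 in WT mice and a log2 difference of −0.36 (exact permutation p = 0.0245). Adjusted over the 12 tests, no ratio passed 0.05, and the smallest adjusted p was 0.228 (exact permutation). The ratios of Fis1 to Mff and of Mief2 to Mief1 had differences between −0.32 and 0.35. Between tissues, the Mief2 to Mief1 ratio had a median of 2.03 in WT BAT and 0.670 in WT inguinal WAT on HFD, with no overlap between the ranges of 1.64 to 2.29 and 0.503 to 0.972.

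The difference between KI and WT mice was itself compared between diets and between tissues. None of the 10 genes was called for a diet dependence in inguinal WAT, where 0.632% of all genes were called, or for a tissue dependence on HFD, where 2.82% were called. DESeq2 called 0 in both. For diet, Mief2 (−0.63 ± 0.27, p = 0.0267, adjusted p = 0.223 by edgeR) and Yme1l1 (−0.25 ± 0.11, p = 0.0339, adjusted p = 0.25 by edgeR) had an unadjusted p below 0.05. Over all alternatives the estimate of Mief2 ran from −0.66 to −0.44. For tissue, the corresponding genes were Mief1 (0.29 ± 0.11, adjusted p = 0.12) and Dnm1l (0.31 ± 0.14, adjusted p = 0.167). Mfn2 had differences of −0.01 for diet (95% interval −0.33 to 0.32) and −0.01 for tissue (95% interval −0.29 to 0.28). Among the 36 related genes, 1 was called for tissue, Ppp3ca, the catalytic subunit of the phosphatase calcineurin (0.46 ± 0.09, adjusted p = 0.00225), which is named because it was the only one and was picked after its value was seen.

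BAT and inguinal WAT on HFD differed far more than the genotypes did. In WT mice, 7 of the 10 genes were higher in BAT and 1 was lower, while 57.1% of all genes tested were called and 27.6% were higher in BAT. In KI mice, 7 were higher and none lower, while 58.4% of all genes were called and 27.9% were higher. The genes higher in BAT of both genotypes were Mfn1, Mfn2, Opa1, Mff, Mief1 and Mief2. Tissue cannot be told apart from whatever differed between the libraries of the separate tables, and the scaling matters here. With library totals in place of TMM the median of all genes shifted to −0.59 (TMM, −0.07) for WT and to −0.72 (TMM, −0.10) for KI mice, and these 6 genes kept their direction and their call. Under that scaling 6 members were higher and 2 lower in BAT of WT mice, and 6 were higher and 3 lower in KI mice. The share of all genes called in each direction was not counted under that scaling, so these member counts stand without a background.

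Mief2 had the largest tissue difference of the 10 genes. It lay between 71.0 and 109 CPM in WT BAT (median 84.2) and between 10.2 and 21.1 CPM in WT inguinal WAT on HFD (median 15.0), a 5.81-fold difference (log2 fold change 2.54 ± 0.17, adjusted p = 6.48e-10). In KI mice the ranges were 66.9 to 116 and 11.2 to 20.65 CPM, a 6.28-fold difference (2.65 ± 0.14, adjusted p = 1.49e-11). Every BAT mouse lay above every inguinal WAT mouse.

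The fusion genes were also higher in BAT. Opa1 was at 117 to 180 CPM in WT BAT against 47.2 to 64.45 CPM in WT inguinal WAT, a 2.87-fold difference (1.52 ± 0.10, adjusted p = 2.07e-10), and in KI mice the difference was 3.16-fold. Mfn1 was 2.64-fold higher in BAT of WT mice and 3.03-fold higher in BAT of KI mice. For Mfn2 the difference was smaller, 2.23-fold in WT mice (337 to 367 against 130.4 to 198 CPM, 1.16 ± 0.09, adjusted p = 2.07e-09) and 2.19-fold in KI mice. None of these ranges overlapped between tissues.

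The fission receptors Mief1 and Mff were also higher in BAT, by 2.10-fold and 1.88-fold in WT mice and 2.52-fold and 2.10-fold in KI mice. Fis1 and Dnm1l behaved differently from these receptors. Fis1 was at 118 to 163 CPM in WT BAT and 90.3 to 152 CPM in WT inguinal WAT (0.19 ± 0.11, adjusted p = 0.141), and it was called higher in BAT of KI mice (0.40 ± 0.10, adjusted p = 0.00161), while the difference between the genotypes in this respect was not called (adjusted p = 0.399). The call in KI mice was lost with no low-count filter (0.33, adjusted p = 0.0109) and with at least 10 counts in every mouse (0.29, adjusted p = 0.0121). Dnm1l was lower in BAT of WT mice, at 66.8 to 76.3 CPM against 77.7 to 116 CPM without overlap (−0.32 ± 0.10, adjusted p = 0.0087), and without the muscle-rich libraries this call was lost (−0.32, adjusted p = 0.0269). In KI mice Dnm1l was at 68.6 to 86.7 and 70.6 to 98.3 CPM (−0.03 ± 0.10, adjusted p = 0.821).

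The proteases differed little between tissues. Oma1 was 1.36-fold higher in WT BAT (14.0 to 17.0 against 10.4 to 13.2 CPM, adjusted p = 0.00042) and 1.185-fold higher in KI BAT, where it was not called (adjusted p = 0.0443). Yme1l1 was not called in either genotype, with log2 fold changes of −0.14 ± 0.09 and −0.14 ± 0.08. The direction of the smaller differences depended on the scaling. With library totals, Oma1 was at −0.08 in WT and −0.37 in KI mice, Fis1 at −0.34 and −0.23, and Yme1l1 at −0.67 and −0.75. Relative to the median of all genes in that scaling (−0.59 and −0.72), Oma1 and Fis1 again lay above it and Yme1l1 below it.

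The mitochondrial reference genes had the larger differences between tissues. The median log2 difference of the 10 genes was 0.99 in WT and 1.1005 in KI mice, that of the 10 reference genes was 2.96 and 3.05 with all 10 called higher in both, and that of all genes was −0.07 and −0.10. Of the 14 related genes of fusion and Opa1 processing, 13 were called higher in BAT of WT mice and 12 in KI mice, with medians of 1.98 and 1.91. Of 11 related fission genes tested, 5 were higher in each genotype, and 2 and 1 were lower. Genes of transport and turnover were higher for 6 and 7 and lower for 1 and 1 of the 10 tested.

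In inguinal WAT, Dnm1l was higher on HFD than on chow in both genotypes, and Fis1 and Mief1 were lower. In WT mice, 1 of the 10 genes was called higher on HFD and 2 lower, while 27.7% of all genes were called and 12.2% were higher. In KI mice, 1 was higher and 5 were lower, while 30.3% of all genes were called and 13.8% were higher. Diet likewise cannot be told apart from differences between the libraries of the tables, those on HFD being the more deeply sequenced.

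Dnm1l was the gene that rose. It was at 77.7 to 116 CPM on HFD (median 87.9) and 53.4 to 60.8 CPM on chow (median 56.9) in WT mice, a 1.62-fold difference (0.70 ± 0.09, adjusted p = 1.5e-05). In KI mice it was at 70.6 to 98.3 and 47.0 to 64.1 CPM, a 1.44-fold difference (0.52 ± 0.10, adjusted p = 0.000472). Neither genotype overlapped between diets. Lymphocyte-rich libraries on HFD had Dnm1l at 98.3 CPM in KI mouse 2, the highest of its group, and at 113 and 84.1 CPM in WT mice 2 and 6. The highest WT value, 116 CPM, came from mouse 3, in which lymphocyte markers summed to 7.70 CPM. The libraries below the limit of 100 CPM also did not overlap between diets (77.7 to 116 against 53.4 to 60.8 CPM in WT, 70.6 to 96.8 against 47.0 to 60.2 CPM in KI mice). Yme1l1 was at 72.5 to 97.5 CPM on HFD and 59.2 to 79.6 CPM on chow in WT mice, just short of the threshold (0.30 ± 0.09, adjusted p = 0.0104) and past it under several alternatives (for example 0.0081 with RLE size factors and 0.00309 with DESeq2), and at nearly equal levels in KI mice (0.04 ± 0.07, adjusted p = 0.684).

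Fis1 and Mief1 fell on HFD in both genotypes. Fis1 was at 90.3 to 152 CPM on HFD (median 119) and 145 to 178 CPM on chow (median 154) in WT mice, a log2 fold change of −0.41 ± 0.10 (adjusted p = 0.00352), and at −0.47 ± 0.09 in KI mice (adjusted p = 0.000531). In each genotype, 7 of 8 mice on HFD lay below every mouse on chow. Mief1 had medians of 20.9 on HFD and 24.5 CPM on chow in WT mice (−0.29 ± 0.07, adjusted p = 0.00476), and in KI mice its ranges of 19.9 to 24.0 and 25.8 to 30.5 CPM did not overlap (−0.33 ± 0.07, adjusted p = 0.00173). Without the lymphocyte-rich libraries both calls in WT mice were lost, Fis1 at −0.39 (adjusted p = 0.0139) and Mief1 at −0.31 (adjusted p = 0.0101), and so was that of Mief1 in KI mice (−0.26, adjusted p = 0.0161). Mief1 also lost both calls with no low-count filter (adjusted p = 0.0223 in WT and 0.0136 in KI mice) and with library totals (−0.28 and −0.19, adjusted p = 0.0147 and 0.0831).

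Mff, Mief2 and Mfn1 were called lower on HFD in KI mice, the last just past the threshold. Mff was at 52.7 to 68.7 CPM on HFD and 76.2 to 87.05 CPM on chow without overlap (−0.39 ± 0.06, adjusted p = 0.000166), against −0.20 ± 0.07 in WT mice (adjusted p = 0.0254). Mief2 was at 11.2 to 20.65 and 15.8 to 41.8 CPM (−0.84 ± 0.21, adjusted p = 0.00465), and Mfn1 at 40.98 to 51.3 and 43.8 to 71.6 CPM (−0.33 ± 0.09, adjusted p = 0.00908). Without the muscle-rich libraries, among them KI mouse 4 on chow, Mief2 was at −0.64 (adjusted p = 0.0241) and Mfn1 at −0.28 (adjusted p = 0.016), so neither was called. Without the lymphocyte-rich libraries the same applied to Mief2 (−0.72, adjusted p = 0.0457) and Mfn1 (−0.35, adjusted p = 0.0125). The call of Mfn1 was also lost with no low-count filter (adjusted p = 0.0268), with at least 10 counts in every mouse (0.014), with RLE size factors (0.0103) and with library totals (−0.18, adjusted p = 0.0767), and in WT mice Mfn1 was at −0.25 ± 0.08 (adjusted p = 0.018). None of the 3 passed the test of a genotype dependence, as given above for Mief2, with adjusted p-values of 0.349 for Mff and 0.827 for Mfn1. Mfn2, Opa1 and Oma1 were called in neither genotype. The 10 mitochondrial reference genes had median differences of −0.47 in WT and −0.66 in KI mice, with 8 and 10 of them called lower, beside −0.20 and −0.25 for the 10 members.

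**Figure D3:**
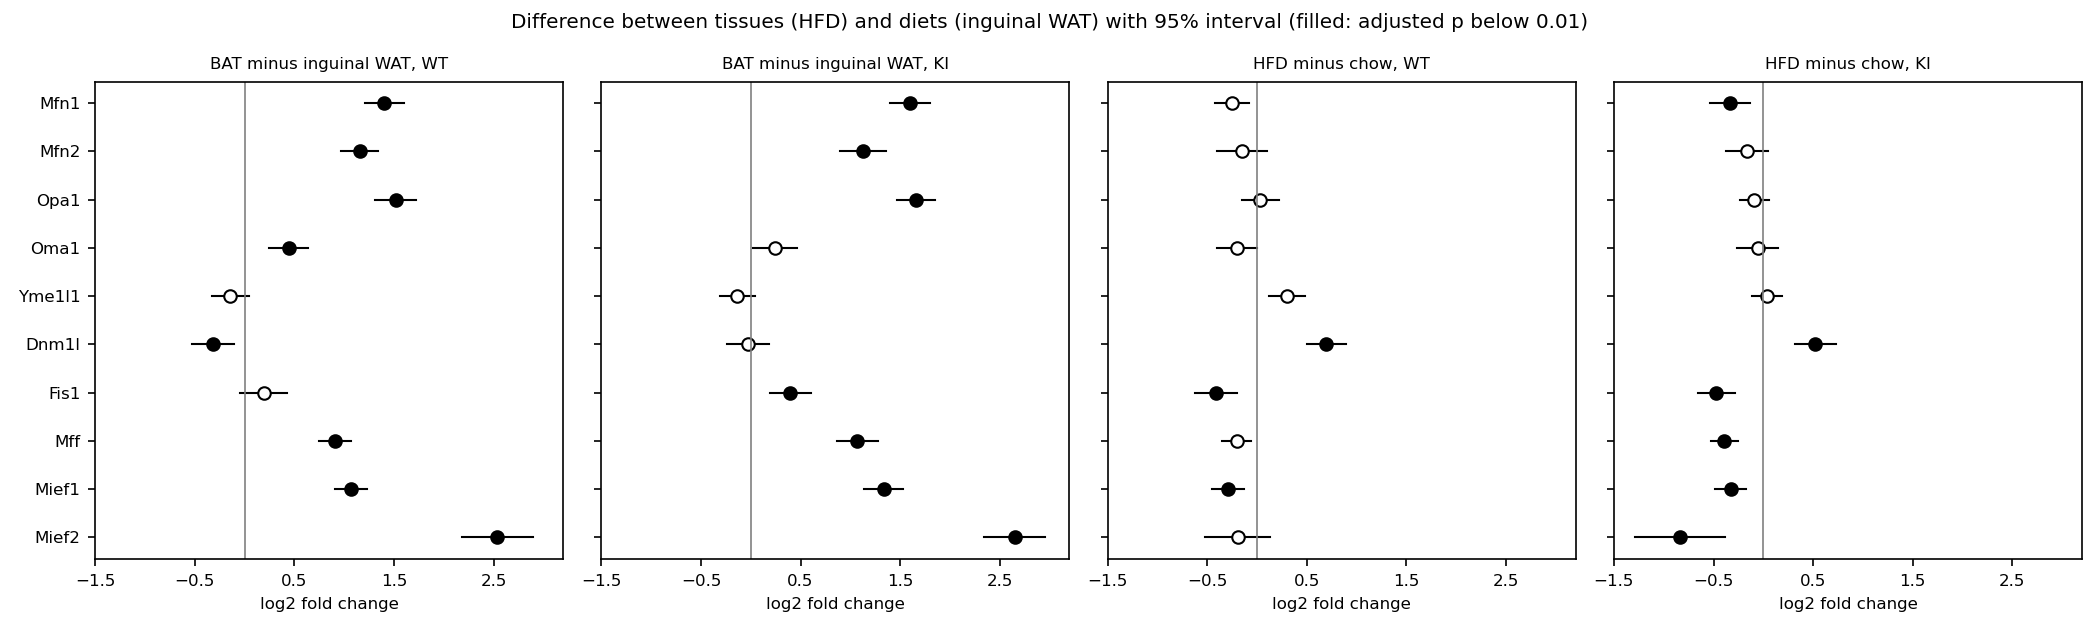
Log2 difference of each gene (horizontal axis) with its 95% interval between BAT and inguinal WAT on HFD and between HFD and chow in inguinal WAT, for WT and KI mice, with filled points at an adjusted p below 0.01. Mief2 shows the largest tissue difference (2.54 and 2.65), and Dnm1l is the only gene above 0 at the threshold for HFD (0.70 and 0.52).

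**Figure D4:**
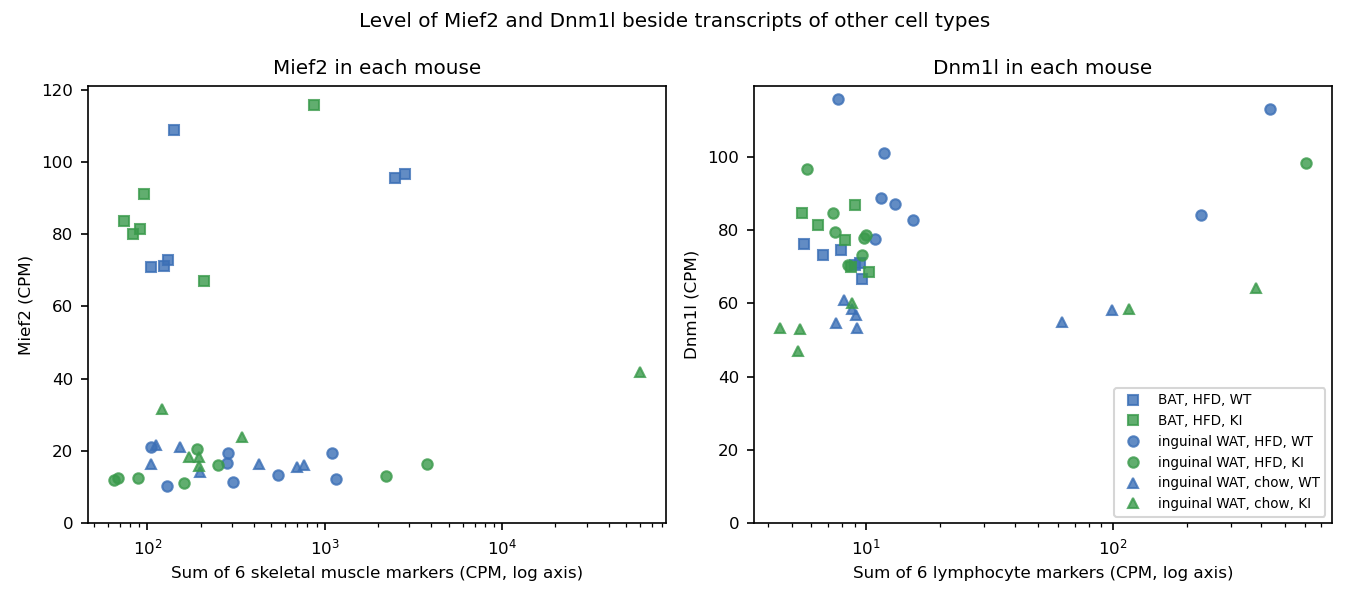
Level of Mief2 against the summed CPM of 6 skeletal muscle markers, and of Dnm1l against that of 6 lymphocyte markers (log horizontal axes), with 1 point per mouse, shaped by tissue and diet and coloured by genotype. The inguinal WAT library with the highest Mief2 (41.8 CPM) is the one with 59810 CPM of muscle markers, and Dnm1l is higher on HFD than on chow in inguinal WAT libraries with few and with many lymphocyte transcripts.

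The order of the levels over the 6 groups shows which genes follow tissue. For Mfn1, Mfn2, Opa1, Mff, Mief1 and Mief2 the 2 BAT groups were highest, their own ranges overlapped, and WT BAT did not overlap with the next group, an inguinal WAT group on chow in KI mice. Below that, neighbouring groups overlapped for these 6 genes, apart from Mff, whose KI and WT mice on chow were separate. For Dnm1l the order ran from inguinal WAT on HFD over BAT to inguinal WAT on chow, and a gap lay only between WT BAT and WT inguinal WAT on chow. For Oma1, Yme1l1 and Fis1 every pair of neighbouring groups overlapped.

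Promoters are shown for Opa1 and Mief2, the pair of genes with the largest tissue differences in WT mice, as GRCm38.p6 windows of 300 bases from RefSeq that start 250 bases before the transcript start, printed in the direction of transcription. The first is chr16:29579084-29579383 and the second chr11:60728148-60728447, both on the plus strand, and capitals mark matches to the searched motifs. The NRF1 site of Opa1 is a palindrome and counts once on each strand.
Opa1: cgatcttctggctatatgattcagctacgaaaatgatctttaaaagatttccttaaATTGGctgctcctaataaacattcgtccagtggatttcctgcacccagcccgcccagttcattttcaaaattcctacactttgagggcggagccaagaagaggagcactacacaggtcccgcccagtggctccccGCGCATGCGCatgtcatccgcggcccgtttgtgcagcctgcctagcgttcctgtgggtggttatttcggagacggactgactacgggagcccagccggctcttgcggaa
Mief2: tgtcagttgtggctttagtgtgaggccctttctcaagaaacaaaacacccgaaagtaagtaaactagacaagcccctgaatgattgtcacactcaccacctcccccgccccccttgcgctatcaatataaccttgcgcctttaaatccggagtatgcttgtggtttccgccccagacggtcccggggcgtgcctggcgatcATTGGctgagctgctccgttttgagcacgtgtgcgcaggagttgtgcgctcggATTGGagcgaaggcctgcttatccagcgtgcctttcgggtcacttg
All 10 genes matched the table, with 15 windows among them, and both strands were searched. The consensus NRF1 site was found for Opa1 and Oma1 and in 4.6% of all 32851 windows. An ETS core (CCGGAAGT) was found for Mfn1, Fis1 and Mief1, in 4 of the 15 windows and in 3.89% of all windows. The CCAAT box (CCAAT) was found for 7 genes and in 37.4% of all windows. No window of the 10 genes held the ERR response element (TCAAGGTCA, in 0.423% of all windows) or the amino acid response element core (TGATGNAA, in 3.97%), which says only that these letters are not in the windows searched.

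Variation between mice of one group was compared between genes, as a description. With each gene's log2 CPM taken less its group mean, Mfn1 and Mief2 had the highest correlation of the 45 pairs of members (Pearson r = 0.72 over 41 mice and tissues). Over the 34 without the muscle-rich libraries it was 0.64, below Mfn2 and Opa1 (0.70), Mfn2 and Mff (0.69) and Fis1 and Mief2 (0.69). Over all 41, Mfn2 was closest to Mff (0.67) and Opa1 (0.61), and its correlation with Mfn1 was 0.41. Yme1l1 ran opposite to Mief2 (−0.55) and Fis1 (−0.47). The points share libraries, depth and cell composition, all of which can move genes together. Among 9801 genes with a mean of at least 10 CPM that were tested in all 3 tables, those most like Mfn2 were Ywhag (0.84), Ppp2r1b (0.83), Lipe (0.82), Vcp (0.82) and Pgrmc2 (0.82), and with the muscle-rich libraries left out their correlations were 0.87, 0.88, 0.85, 0.83 and 0.85. Lipe encodes hormone-sensitive lipase of adipocytes, and Vcp an AAA ATPase that extracts ubiquitinated proteins from membranes.

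**Figure D5:**
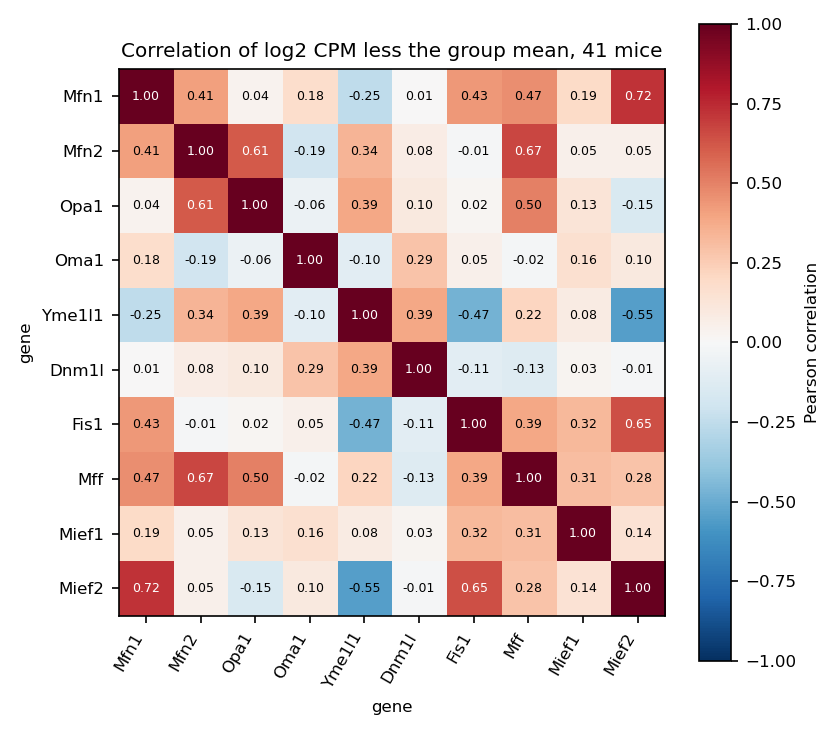
Pearson correlation of each pair of the 10 genes over 41 mice and tissues, computed on log2 CPM less the group mean, with the value printed in each cell and red for positive and blue for negative correlations. The largest values off the diagonal are 0.72 (Mfn1 and Mief2) and 0.67 (Mfn2 and Mff), and the lowest is −0.55 (Yme1l1 and Mief2).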

How the data were processed

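Poly(A) RNA was sequenced by the authors from BAT and inguinal WAT, and the files hold raw counts per gene, which the authors made with cutadapt, STAR, SAMtools and featureCounts on GRCm38 (versions not given in the sources used here). The 3 deposited count tables have 41 columns, each 1 mouse and tissue. For inguinal WAT on HFD a column corresponds to 2 technical libraries of a mouse in the labels, and counts as 1 replicate. Of 54838 entries per table, 1884 without length or count and 101 of a repeated symbol were dropped, which left 52853 genes. The deposited gene length column (an other unit, bases) was used for levels per kilobase.

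Comparisons were fitted with edgeR 4.0.16 (R 4.3.3) on raw counts with TMM, filterByExpr, robust quasi-likelihood fits and Benjamini-Hochberg adjustment over all genes tested, and calls were made at 0.01 on the adjusted p. Each fit held only the groups compared, and the diet and tissue dependences are interaction terms over 4 groups, which take BAT and inguinal WAT as independent. Standard errors and 95% intervals are on the log2 scale. Ratios used counts plus 0.5 and 2-sided exact permutation tests with adjustment over 12 tests. The correlations used log2 of CPM plus 0.5. The scripts were tested on simulated data. Alternatives were DESeq2 1.42.0, RLE size factors, other filters and thresholds, no mitochondrially encoded genes, a replicate block, 1 fit of all 6 groups and each mouse left out. Leaving out muscle-rich (marker sum above 1000 CPM) or lymphocyte-rich (above 100 CPM) libraries and scaling by library totals were added after seeing the data. The replicate block kept only mouse numbers present in both groups. It thus left out WT mouse 7 between genotypes on chow, and KI mice 7 and 8 on HFD for diet. The same number can belong to different animals. Calls changed under the block therefore cannot be credited to the block rather than to fewer mice.

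All 10 members, the genes called between KI and WT mice from 3 lists of related genes (36 of 37 matched), and the 5 genes most like Mfn2 are named. The reference genes and markers of brown adipocytes, adipocytes, muscle, macrophages, lymphocytes, endothelium, fibroblasts and epithelium are given as sums, counts or medians. The members and lists were chosen with earlier results of these data known. Macrophage markers summed to 57.3 to 552 CPM, endothelial markers to 606 to 1658 CPM, fibroblast markers to 189.9 to 4643 CPM and epithelial markers to 0 to 121 CPM, and the adipocyte markers to 14820 to 35720 CPM. Each column was taken as a separate animal, so p-values measure the spread between mice of one group.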

Additional observations from a re-analysis of the deposited data

Results flagged for a closer look

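In 4 of the 60 combinations of gene and group, 1 mouse lay far from the others of its group, by Dixon's criterion at 95%, a rate that chance alone brings to about 5% of such combinations. In WT mice on chow, Yme1l1 was at 79.6 CPM in mouse 3, where the next value was 64.8 CPM. In the same group, Mff was at 54.2 CPM in mouse 4, below the next value of 66.8 CPM, and this mouse also had the lowest Mfn2 (114 CPM). In KI inguinal WAT on HFD, Fis1 was at 151 CPM in mouse 4, above the next value of 131 CPM. In the same group, Mff was at 52.7 CPM in mouse 2, below the next value of 62.2 CPM, and this is the library with the highest sum of lymphocyte markers (604.5 CPM).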

How the results depend on the processing

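The same-numbered mice could not be shown to be paired. Correlations of their deviations ran from −0.31 to 0.71 over 45 pairs, 14 of them above 0.1, and 8 of the 45 matched their own number best. Mice of different genotype or diet are different animals, among them the pair at 0.71 (mouse 2 of each genotype in inguinal WAT on HFD). Only pairs of BAT and inguinal WAT could come from 1 animal, at −0.07 to 0.24 in WT and −0.15 to 0.10 in KI mice. A replicate block on mouse number, which left out unmatched mice, called 2 members in place of 6 for diet in KI mice. It called 127 genes in place of 472 between genotypes on chow. Under the block, calls were lost for Oma1 in BAT against inguinal WAT of WT mice (0.35, adjusted p = 0.0174), Fis1 in the same comparison of KI mice (0.0209), Mief1 for diet in WT mice (0.0307) and Mfn1, Fis1, Mief1 and Mief2 for diet in KI mice (0.0805, 0.0128, 0.0216 and 0.0185), and gained for Mfn1 (−0.28, adjusted p = 0.0036) and Yme1l1 (0.00558) for diet in WT mice.

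Of the single-gene values under alternatives, 1201 kept their direction and side of the threshold, 26 lost a call, 19 gained one and 34 changed sign, and of the counts of members and the ratios 300 held, 15 moved and 19 changed sign. Between KI and WT mice in inguinal WAT on HFD, 1 member (Mfn2) in place of 0 was called with at least 10 counts in every mouse (adjusted p = 0.00957), with DESeq2, at an adjusted p below 0.05 and with library totals (log2 fold change 0.43, adjusted p = 0.000564). With each mouse left out the count lay between 0 and 1, and the adjusted p of Mfn2 between 0.00288 and 0.0351. On chow 1 (Mff) was called with DESeq2 and at 0.05, and in BAT 1 (Mief1, 0.35) in 1 fit of all 6 groups. For diet in WT mice 6 members were called at 0.05, 1 at 0.001 and 1 without lymphocyte-rich libraries, in place of 3, and in KI mice 3 at 0.001 and 3 without lymphocyte-rich libraries. Yme1l1 for diet in WT mice also passed the threshold with DESeq2 (adjusted p = 0.00309), at least 10 counts (0.00538), RLE (0.0081), no mitochondrially encoded genes (0.00933), 1 fit of all groups (0.000739) and library totals (0.00817). Mfn1 for diet in KI mice lost its call without mitochondrially encoded genes (0.01). The causes were not tested.

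Values near 0 changed sign. Without muscle-rich libraries the log2 ratio difference was −0.061 for Mfn2 to Mfn1 in BAT, 0.052 for Fis1 to Mff in inguinal WAT on HFD and −0.031 for Fis1 to Mff in BAT. With each mouse left out, Mfn2 to Mfn1 in BAT ran from −0.040 to 0.073, Fis1 to Mff in BAT from −0.044 to 0.084 and on HFD in inguinal WAT from −0.067 to 0.011, Oma1 to Yme1l1 there from −0.0013 to 0.090, Fis1 there from −0.0145 to 0.0875, Dnm1l on chow from −0.069 to 0.033 and Mief2 in BAT from −0.11 to 0.067. With library totals, Oma1 between genotypes on HFD was 0.038, Oma1 and Fis1 between tissues −0.081 and −0.34 in WT and −0.37 and −0.23 in KI mice, Opa1 and Oma1 for diet in KI mice 0.045 and 0.085, the diet dependence of Mfn1, Mfn2, Fis1 and Mief1 0.068, 0.12, 0.082 and 0.093, and the tissue dependence of Yme1l1 −0.089. Without muscle-rich libraries, Mief2 in BAT was 0.080, the diet dependence of Fis1 0.044 and the tissue dependence of Mfn2 0.079. Without lymphocyte-rich libraries, the diet dependence of Mief1 was 0.038 and Dnm1l between tissues in KI mice 0.0022. In 1 fit of all 6 groups, Mief2 between genotypes in BAT was 0.021, Dnm1l between tissues in KI mice 0.0014 and the tissue dependence of Mfn2 0.0029, as it was with RLE factors and DESeq2.

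Counts over all genes moved by over 1.5 times in places. Between genotypes on HFD in inguinal WAT, 1886 genes became 1242 in 1 fit of all groups and 1004 without muscle-rich libraries, and 3448 and 880 at 0.05 and 0.001. On chow, 472 became 1121 with DESeq2, 1088 in 1 fit, 291 without lymphocyte-rich libraries, and 1252 and 125 at 0.05 and 0.001. In BAT, 243 became 715 with DESeq2, 834 in 1 fit, and 952 and 59 at 0.05 and 0.001. For diet, 4514 in WT mice became 6831 and 2434 at 0.05 and 0.001, and 4923 in KI mice became 2799 at 0.001 and 2159 with the block. The diet dependence went from 110 to 168 with at least 10 counts, 414 with DESeq2, 175 with library totals, 33 without muscle-rich and 33 without lymphocyte-rich libraries, and 500 and 19 at 0.05 and 0.001. The tissue dependence went from 485 to 844 with DESeq2, 199 without muscle-rich libraries, and 1280 and 163 at 0.05 and 0.001. With each mouse left out, the counts between genotypes ran from 1460 to 2338, 288 to 497 and 134 to 313. Depth limits Oma1 most, with 82 to 363 counts.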
